A study of Homo sapiens with 6 samples.

Results

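The mitochondrial genome encodes 37 of the 58825 genes in the expression table of this study, and they were taken as all rows whose gene name begins with MT- on the mitochondrial chromosome. They comprise 13 protein-coding genes, 2 rRNA genes and 22 tRNA genes, and 28 of the 37 lie on the plus strand and 9 on the minus strand. RNA-seq covered 6 samples of PANC-1, a line of human pancreatic carcinoma cells. The MA PANC-1 group (n = 3) received maslinic acid (MA), a triterpenoid found in olives, at 40 μM for 24 h, and the PANC-1 group (n = 3) was untreated, at 0 μM. In the methods the 3 samples of a group are described as biological replicates, and DMSO is named there beside MA for treating the cells, while the labels call the controls untreated. The comparison asks how the RNA of PANC-1 cells differed with MA treatment. The totals of the estimated counts were 56978375, 63984133 and 58181114 for MA PANC-1 1, 2 and 3, against 70275355, 65607669 and 59422939 for PANC-1 1, 2 and 3. In each sample this total exceeded the valid reads that the study lists, so an estimated count is not 1 sequenced read. Of the markers of the line that were looked for, some were abundant, with KRT8 at 141 to 225 FPKM, KRT18 at 278 to 338 FPKM and VIM at 521 to 754 FPKM, whereas the epithelial markers KRT19 and EPCAM did not exceed 0.109 and 0.132 FPKM. FPKM is the number of sequenced fragments scaled to the length of the gene and the depth of the library. Markers of blood (PTPRC), endothelial (PECAM1), acinar (PRSS1, CPA1) and islet (INS) cells did not exceed 0.0275 FPKM, and of the fibroblast markers DCN reached 0.0107 and LUM 0.616 FPKM.

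The human mitochondrial genome is a small circle that encodes core subunits of the oxidative phosphorylation complexes together with the rRNAs and tRNAs needed to translate them inside the organelle. Both strands are transcribed into long precursor RNAs. In most places tRNAs separate the coding regions, and their excision by RNase P and RNase Z releases the mRNAs and rRNAs, most of which then receive a poly(A) tail, while tRNAs receive a CCA end instead. The proteins for transcription, RNA processing and translation in mitochondria are encoded in the nucleus. MT-ND6 is the only protein-coding gene whose mRNA is read from the minus strand of the annotation.

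The results turned mostly on tRNA genes, and 9 of their sequences are shown, as annotated by GENCODE release 29 on GRCh38, 5′ to 3′ on the strand of the gene, in DNA letters and with the anticodon in capitals. The 5 on the plus strand are those with an unadjusted p under 0.05 between MA PANC-1 and PANC-1. They decode phenylalanine (MT:577-647, before the 12S rRNA gene), valine (MT:1602-1670, between the rRNA genes), isoleucine (MT:4263-4331, after MT-ND1), aspartate (MT:7518-7585, before MT-CO2) and threonine (MT:15888-15953, after MT-CYB).
MT-TF: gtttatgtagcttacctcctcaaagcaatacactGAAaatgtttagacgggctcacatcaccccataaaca
MT-TV: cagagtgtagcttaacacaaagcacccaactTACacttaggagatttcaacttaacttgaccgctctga
MT-TI: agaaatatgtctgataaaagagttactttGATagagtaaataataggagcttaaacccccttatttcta
MT-TD: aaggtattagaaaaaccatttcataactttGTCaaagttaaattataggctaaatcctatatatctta
MT-TT: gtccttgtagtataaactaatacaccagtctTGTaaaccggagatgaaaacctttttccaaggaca
The 4 on the minus strand are the most abundant tRNA genes. They form a cluster between MT-ND2 and MT-CO1 and decode alanine (MT:5587-5655), asparagine (MT:5657-5729), cysteine (MT:5761-5826) and tyrosine (MT:5826-5891).
MT-TA: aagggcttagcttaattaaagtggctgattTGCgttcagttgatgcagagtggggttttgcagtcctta
MT-TN: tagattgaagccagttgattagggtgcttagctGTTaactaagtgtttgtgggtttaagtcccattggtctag
MT-TC: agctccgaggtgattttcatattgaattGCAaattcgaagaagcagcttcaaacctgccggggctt
MT-TY: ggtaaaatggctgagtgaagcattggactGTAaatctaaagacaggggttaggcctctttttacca
The median GC content was 37.9% over the 5 plus-strand tRNA genes, 35.3% over the other 9 plus-strand tRNA genes and 43.0% over the 8 minus-strand tRNA genes. The genes shown are 66 to 73 bases long.

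The levels of the 37 genes spanned a wide range in every sample. MT-CO2, a catalytic subunit of complex IV, had the highest mean level of any gene in the table, at 7806 ± 567 FPKM (SD, n = 3) after MA and 8874 ± 279 FPKM (SD, n = 3) in untreated cells. Of the 20 genes with the highest mean FPKM, 12 were mitochondrial protein-coding genes and 3 were tRNA genes of the minus-strand cluster, MT-TC, MT-TN and MT-TY. The protein-coding genes lay within a 5.72-fold range of mean FPKM, from MT-ATP6 at 1458 to MT-CO2 at 8340. Reads of MT-ATP6 may be divided with a nuclear copy, MTATP6P1, which had a mean of 1044 FPKM. The place of MT-ATP6 as the lowest and outside the first 20 is therefore uncertain, and MT-ND6 was next, at 1926. The tRNA genes ranged more widely than the protein-coding genes, 682-fold, from MT-TQ at 5.49 to MT-TC at 3743. On the plus strand the highest tRNA gene was MT-TL1, a leucine tRNA gene that directly follows MT-RNR2, at 346, and the lowest was MT-TW at 8.45. The libraries were made from poly(A)-selected RNA with inserts of 300 ± 50 bp, so a fragment of that length extends past a tRNA gene, which has 59 to 75 bases. Whether the counts came from excised tRNA or from unprocessed RNA across the gene was not tested. The library kit marks the strand, but whether counting used it is not given in the sources used here.

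**Figure D1:**
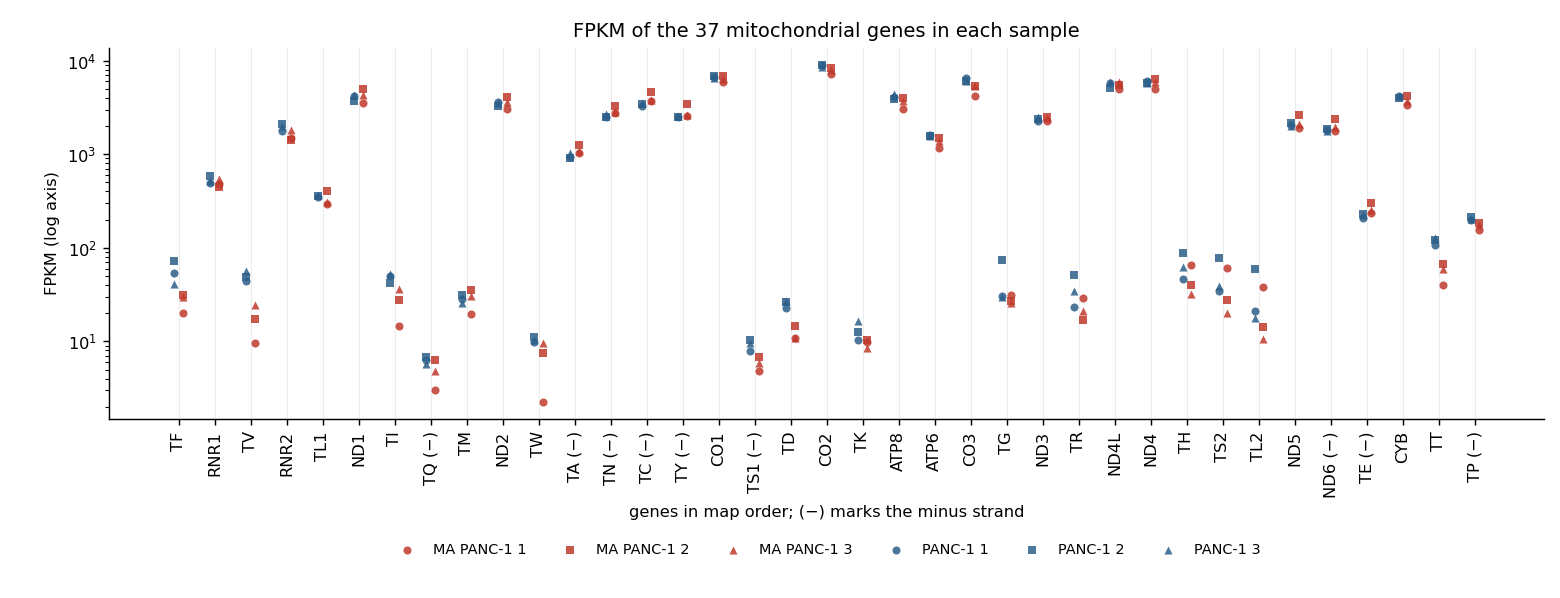
FPKM (log axis) of each of the 37 genes in map order, with a point per sample, MA PANC-1 in red and PANC-1 in blue. Protein-coding genes lie at 1152 FPKM or more in all samples, and tRNA genes run from 2.27 FPKM (MT-TW in MA PANC-1 1) to 4645 FPKM (MT-TC in MA PANC-1 2).

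The share of all estimated counts that fell in the mitochondrial genome overlapped between the groups. It was 5.48%, 6.80% and 6.33% for MA PANC-1 1, 2 and 3, against 6.61%, 6.53% and 6.53% for PANC-1 1, 2 and 3. MA PANC-1 1 was lowest and MA PANC-1 2 highest, with the PANC-1 samples in between. MA PANC-1 2 also had the lowest TMM factor, which scales library sizes, at 0.941 against 1.0 to 1.02 in the other 5 samples. In bulk RNA, fewer mitochondria per cell, less RNA per mitochondrion and fewer cells of a type cannot be told apart.

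Within the mitochondrial counts, the protein-coding genes held 92.7% ± 0.875 (SD, n = 3) after MA and 92.1% ± 0.648 (SD, n = 3) in untreated cells, with overlapping groups. The tRNA genes held 1.64%, 1.66% and 1.48% in MA PANC-1 1, 2 and 3 and 1.29%, 1.36% and 1.40% in PANC-1 1, 2 and 3, so all MA PANC-1 samples lay above all PANC-1 samples. The sums of the strands went opposite ways in this class. Plus-strand tRNA genes held 0.0984%, 0.0935% and 0.0843% after MA and 0.106%, 0.137% and 0.116% in untreated cells, lower in each MA PANC-1 sample. Minus-strand tRNA genes held 1.55%, 1.57% and 1.40% after MA against 1.18%, 1.22% and 1.28% without it, higher in each MA PANC-1 sample. Most of this minus-strand sum lay in MT-TA, MT-TN, MT-TC and MT-TY. The less abundant MT-TQ, MT-TS1 and MT-TP on that strand had negative log2 fold changes. Over all 9 minus-strand genes the share was 3.54% ± 0.207 (SD, n = 3) after MA and 2.97% ± 0.0546 (SD, n = 3) in untreated cells, and the groups did not overlap. The rRNA genes held 6.05%, 4.61% and 6.38% after MA and 5.86%, 7.07% and 6.60% in untreated cells, and here the groups overlapped, with MA PANC-1 2 lowest. These shares are sums over the chosen genes and were given no test.

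**Figure D2:**
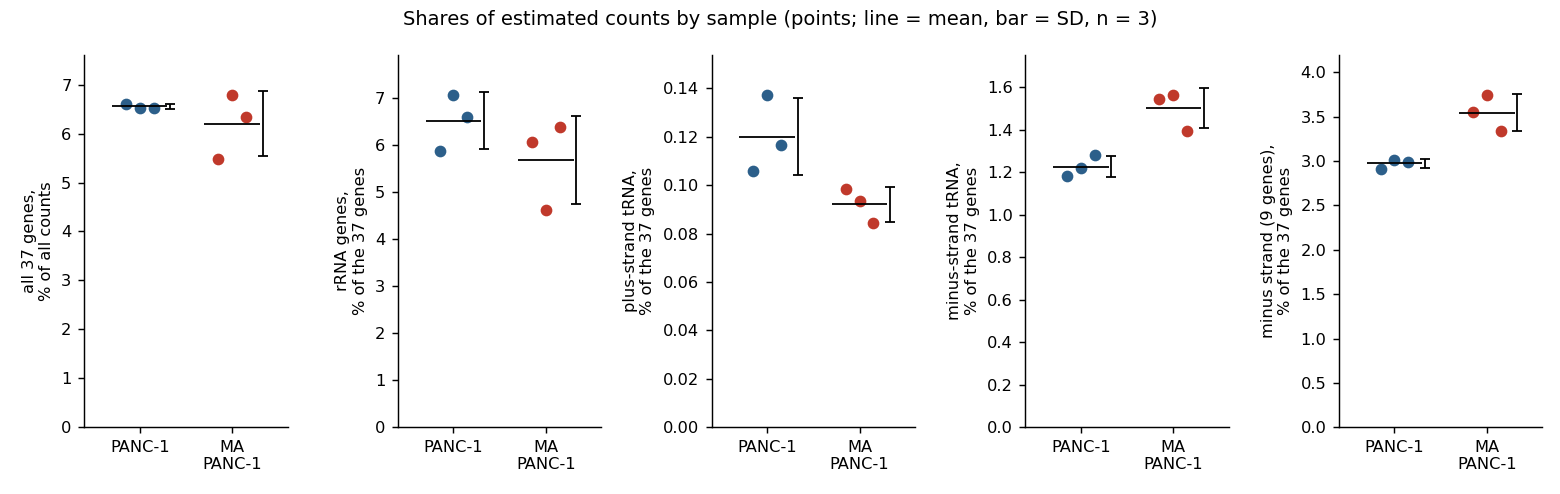
Share of estimated counts per sample for all 37 genes (percent of all counts) and for 4 sets (percent of the counts in the 37 genes); points are samples, lines are means and bars are SD (n = 3). Plus-strand tRNA is lower and minus-strand tRNA and the whole minus strand are higher in every MA PANC-1 sample than in any PANC-1 sample, while the shares of all 37 genes and of rRNA overlap.

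Between MA PANC-1 and PANC-1, 6 of the 37 genes had an unadjusted p under 0.05, and all 6 were lower after MA: 5 plus-strand tRNA genes and MT-RNR2. This is 16.2% of the mitochondrial genes, against 11.2% of the 17774 genes tested in either direction and 5.86% lower. None of the 37 was higher at that threshold, against 5.37% of all genes tested. A 2-fold change as well was found in 3 genes (8.11%), MT-TV, MT-TT and MT-TD, against 1.92% of all genes, 1.25% lower and 0.675% higher. The FPKM values of the groups did not overlap in 16 of the 37 genes (43.2%), 11 lower and 5 higher after MA, against 19.9% of all genes tested, 11.1% lower and 8.79% higher. The 5 higher genes include the adjacent MT-TA, MT-TN, MT-TC and MT-TY. Mitochondrial genes are read from shared precursor RNAs, so the 37 are not separate observations and these shares are no test over them. No mitochondrial gene kept an adjusted p under 0.05 in edgeR's quasi-likelihood test with Benjamini-Hochberg adjustment over all genes tested, where 0.0394% of all genes (7) did. DESeq2 gave 2, MT-TT and MT-TV, against 1.73% (259) of the 14964 genes to which it gave an adjusted p. In the following, fell and rose are used of genes past the unadjusted threshold. The median log2 fold change was −0.18 over the 37 genes and −0.0017 over all genes tested. By class it was 0.01 for protein-coding, −0.18 for rRNA and −0.47 for tRNA genes, and by strand −0.24 for the plus and 0.24 for the minus strand. Leaving out a sample moved these medians, that of protein-coding genes to −0.10 without MA PANC-1 2 and to 0.081 when MA PANC-1 1 was omitted, that of rRNA genes to −0.12 without PANC-1 2, that of tRNA genes to −0.20 without PANC-1 2 and to −0.29 without MA PANC-1 3, that of the plus strand to −0.12 without MA PANC-1 1 and to −0.13 when PANC-1 2 was omitted, and that of the minus strand to 0.055 without MA PANC-1 2. The median over the 37 genes was not computed with samples left out. With all samples it equalled the value of MT-ATP8, which was −0.064 without MA PANC-1 1 and −0.31 without MA PANC-1 2. Neither the difference between classes nor that between strands was tested.

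**Figure D3:**
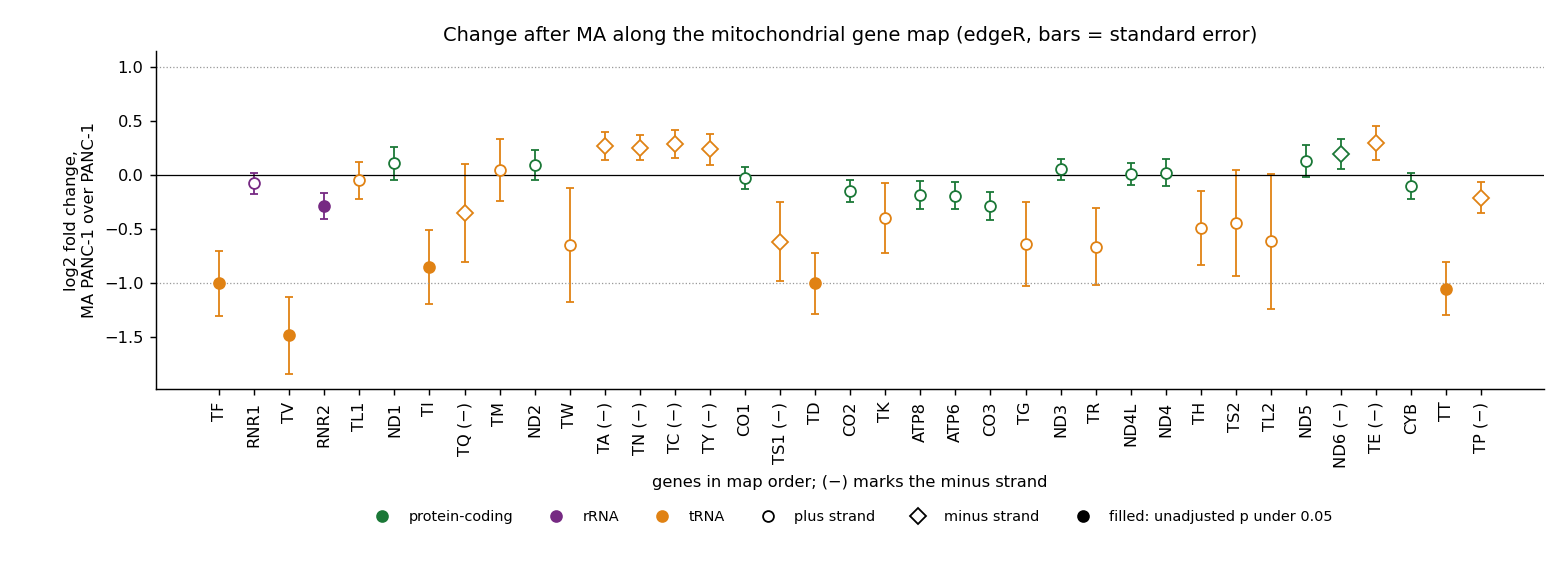
The log2 fold change of MA PANC-1 over PANC-1 for the 37 genes in map order, with standard errors; circles are plus-strand and diamonds minus-strand genes, and filled symbols have an unadjusted p under 0.05. Of the 14 plus-strand tRNA genes 13 lie below 0, of the 8 minus-strand tRNA genes 5 lie above 0, and the protein-coding genes lie between −0.29 and 0.19.

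The valine tRNA gene MT-TV showed the greatest decrease of the 37 genes in the edgeR fit. It had 45, 93 and 118 estimated counts for MA PANC-1 1, 2 and 3, against 256, 261 and 274 for PANC-1 1, 2 and 3. Its level was 17.3 ± 7.48 FPKM (SD, n = 3) after MA and 49.4 ± 6.01 FPKM (SD, n = 3) without it, a log2 fold change of −1.48 (standard error, SE, 0.35, adjusted p = 0.375, edgeR). All MA PANC-1 samples were below all PANC-1 samples, and MA PANC-1 1 was lowest. DESeq2 gave MT-TV an adjusted p of 0.0120.

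The threonine tRNA gene MT-TT, whose sequence with the anticodon TGT is given above, had 180, 337 and 273 estimated counts after MA and 594, 622 and 597 in untreated cells. The counts of the PANC-1 samples were nearly equal, while their FPKM was 107, 120 and 128. The highest MA PANC-1 sample lay well below them, at 66.6 FPKM. Its log2 fold change was −1.05 (standard error 0.24, adjusted p = 0.375, edgeR), and DESeq2 gave an adjusted p of 0.00786. MT-TP, the proline tRNA gene that lies next to it on the minus strand, was at 153, 185 and 177 FPKM after MA and 196, 212 and 202 FPKM in untreated cells, with a log2 fold change of −0.21 (adjusted p = 0.597, edgeR), or −0.12 without MA PANC-1 1. The ratio of MT-TT to MT-TP in FPKM was 0.262, 0.361 and 0.335 after MA against 0.546, 0.566 and 0.631 in untreated cells. The ratio was lower in every MA PANC-1 sample, as was that of MT-TT to its plus-strand neighbour MT-CYB. For the pair MT-TI and MT-TQ, which also lie on opposite strands, the FPKM ratio was 4.86, 4.35 and 7.45 after MA against 7.82, 6.21 and 9.28 in untreated cells, and the groups overlapped.

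The aspartate tRNA gene MT-TD had 51, 77 and 52 estimated counts after MA and 129, 142 and 130 in untreated cells. Its log2 fold change was −1.0, just past 2-fold (standard error 0.28, adjusted p = 0.388, edgeR), and the groups did not overlap. MT-TF, for phenylalanine, had 97, 169 and 148 counts after MA and 318, 401 and 209 in untreated cells, where PANC-1 2 was highest. It had a log2 fold change of −0.998, just short of 2-fold (SE 0.30, adjusted p = 0.388, edgeR). MT-TI, for isoleucine, had 68, 146 and 172 counts after MA and 289, 227 and 258 in untreated cells, without overlap in FPKM, and a log2 fold change of −0.85 (adjusted p = 0.439, edgeR). MT-TF and MT-TI fall outside the rule for named genes and were singled out after their values were seen. MT-TF, MT-TV, MT-TD and MT-TT kept an unadjusted p under 0.05 in each of 17 alternatives, while MT-TI lost it when any sample other than MA PANC-1 3 was left out. Its log2 fold change shrank to −0.56 without MA PANC-1 1, and it ran from −0.94 to −0.78 for the other 4. Without MA PANC-1 1 only MT-TV kept a 2-fold change.

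Summed over these 5 genes there were 441, 822 and 763 estimated counts for MA PANC-1 1, 2 and 3, against 1586, 1653 and 1468 for PANC-1 1, 2 and 3. The counts behind these decreases were thus small, and they are estimates, so replicate spread sets their precision.

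The other 9 plus-strand tRNA genes did not pass the threshold with all 6 samples, and their log2 fold changes ran from −0.66 (MT-TR) to 0.05 (MT-TM). MT-TR was at −0.90 without PANC-1 1, with an unadjusted p under 0.05, and at −0.32 when PANC-1 2 was omitted. MT-TL1 (UUR leucine), the most abundant of them, had 1478, 2324 and 1602 estimated counts after MA and 2185, 2113 and 1937 in untreated cells, with overlapping groups and a log2 fold change of −0.05 (SE 0.17, adjusted p = 0.929, edgeR), or −0.26 without MA PANC-1 2, where its unadjusted p was under 0.05. MT-TL1 lies beyond MT-RNR2 from MT-TV, and its FPKM was 30.2, 23.1 and 12.5 times that of MT-TV after MA and 7.88, 7.45 and 6.52 times in untreated cells. In MT-TW (tryptophan) the groups did not overlap, at 11, 39 and 46 counts after MA and 57, 60 and 50 in untreated cells, but its log2 fold change of −0.65 had a standard error of 0.53 (adjusted p = 0.646, edgeR) and moved to −0.25 without MA PANC-1 1 and to −1.0 when MA PANC-1 3 was omitted. MT-TK (lysine) was at 9.86, 10.4 and 8.52 FPKM after MA and 10.3, 12.5 and 16.3 FPKM in untreated cells. MT-TG, MT-TR, MT-TH, MT-TS2 and MT-TL2, the tRNA genes around MT-ND3 and between MT-ND4 and MT-ND5, were singled out after their values were seen. Their summed counts were 1004, 642 and 508 for MA PANC-1 1, 2 and 3, against 873, 1819 and 859 for PANC-1 1, 2 and 3. PANC-1 2 was the highest sample in all 5 of these genes, and MA PANC-1 1 was the highest MA PANC-1 sample in each.

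**Figure D4:**
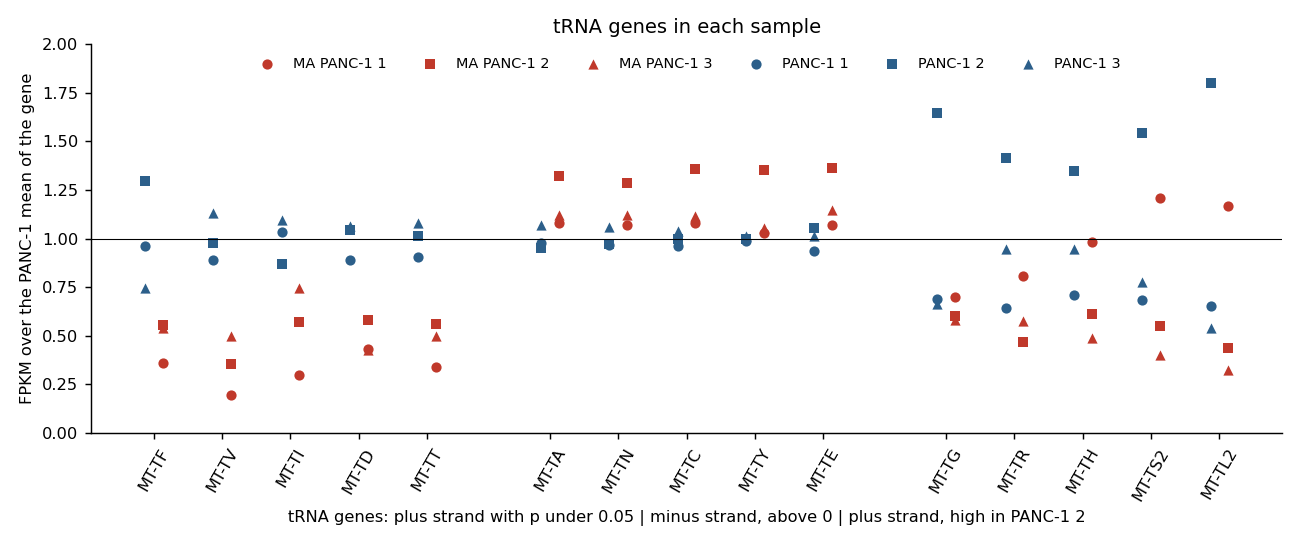
FPKM of 15 tRNA genes in each sample, divided by the PANC-1 mean of the gene; red symbols are MA PANC-1 and blue symbols PANC-1 samples. All MA PANC-1 samples lie below all PANC-1 samples in the left set, which holds the tRNA genes with an unadjusted p under 0.05, and above them in the middle set, which holds the minus-strand tRNA genes with a log2 fold change above 0, so these separations follow from how the sets were chosen; in the right set, also chosen from its values, PANC-1 2 is the highest sample.

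Nuclear genes for small noncoding RNAs and histones, which mostly make RNA without a poly(A) tail, were examined beside the tRNA genes, since libraries were selected for poly(A). Of 18 such genes 12 could be tested, with 1 higher, 1 lower, near the 5.37% and 5.86% of all genes tested. Their median log2 fold change was 0.040, with 6 above 0 and 6 below, from −2.49 (VTRNA1-1) to 1.73 (RPPH1). The small noncoding RNA genes tested were all below 0 but RPPH1. The histone genes tested were all above 0 but HIST1H4C and HIST2H2AC. Several had few estimated counts, with at most 6 in VTRNA1-1, 19 in RPPH1 and 23 in RN7SK. The signal recognition particle RNA RN7SL1 fell, with 56, 88 and 84 estimated counts after MA and 109, 168 and 172 in untreated cells (log2 fold change −0.84, adjusted p = 0.435, edgeR). The histone gene HIST1H2BD, which can also make polyadenylated mRNA, rose, with 296, 228 and 291 counts after MA and 241, 148 and 121 in untreated cells (log2 fold change 0.86, adjusted p = 0.408, edgeR). The part of poly(A) selection in the values of the tRNA genes or of any other mitochondrial gene, MT-ND6 among them, was not tested.

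On the minus strand, no gene passed the threshold in edgeR with all 6 samples, and 6 of the 9 log2 fold changes were above 0. MT-TC, the cysteine tRNA gene and the most abundant tRNA gene, was at 3708, 4645 and 3820.4 FPKM for MA PANC-1 1, 2 and 3, against 3300.5, 3424 and 3559.8 FPKM for PANC-1 1, 2 and 3. MA PANC-1 2 was the highest sample, and all MA PANC-1 samples were above all PANC-1 samples. Its log2 fold change was 0.29 (standard error 0.13, adjusted p = 0.464, edgeR), or 0.13 without MA PANC-1 2, 0.36 without MA PANC-1 1 and 0.35 without MA PANC-1 3, and without either of the last 2 its unadjusted p was under 0.05. MT-TN was at 2726, 3271 and 2857 FPKM after MA and 2467, 2474 and 2701 FPKM in untreated cells (log2 fold change 0.25, adjusted p = 0.465, edgeR). MT-TA was at 1034, 1266 and 1074 FPKM after MA and 937, 915 and 1026 FPKM in untreated cells (log2 fold change 0.27, adjusted p = 0.471, edgeR). MT-TY was at 2585, 3396 and 2646 FPKM after MA and 2486, 2505 and 2552 FPKM in untreated cells (log2 fold change 0.24, adjusted p = 0.538, edgeR). Without MA PANC-1 1 the unadjusted p of MT-TN was also under 0.05. In each of the 4 genes MA PANC-1 2 was the highest sample and the groups did not overlap. These 4 neighbouring genes held 90.4, 90.7 and 90.5 percent of all mitochondrial tRNA counts after MA and 87.8, 85.6 and 87.7 percent in untreated cells. Adjacent members of the cluster kept a near-constant ratio, with MT-TC at 1.33 to 1.44 times MT-TY in FPKM over the 6 samples. In a limma fit to log2(FPKM + 0.1), MT-TA, MT-TN and MT-TC had an unadjusted p under 0.05, and with a pseudocount of 1 MT-TN and MT-TC did. MT-TS1 and MT-TP, which were lower after MA, also had an unadjusted p under 0.05 in both limma fits.

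MT-TE, the glutamate tRNA gene next to MT-ND6 on the minus strand, was at 235, 299.9 and 252 FPKM after MA and 206, 232 and 222 FPKM in untreated cells, without overlap (log2 fold change 0.30, adjusted p = 0.50, edgeR). Without MA PANC-1 2, the log2 fold changes of MT-TE and the 4 clustered genes were 0.055 to 0.14. The remaining 3 minus-strand tRNA genes lay below 0, and in MT-TS1 and MT-TP all MA PANC-1 samples were below all PANC-1 samples in FPKM. Of these MT-TP is given above, MT-TS1 (UCN serine), between MT-CO1 and MT-TD, had 23, 36 and 29 estimated counts after MA and 46, 57 and 47 in untreated cells, and MT-TQ (glutamine) had 15, 35 and 25 after MA against 39, 39 and 29 without it. MT-TQ overlaps MT-TI on the opposite strand by a few bases, so reads there cannot be told apart without strand.

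MT-ND6 (MT:14149-14673), a membrane subunit of complex I, was at 1762, 2362 and 1955 FPKM after MA and 1822, 1865 and 1787 FPKM in untreated cells. The groups overlapped, since MA PANC-1 1 was below all PANC-1 samples. Its log2 fold change was 0.19 (standard error 0.14, adjusted p = 0.602, edgeR), or 0.024 without MA PANC-1 2. As a share of protein-coding mitochondrial counts, however, MT-ND6 held 2.17%, 2.33% and 2.10% after MA and 1.86%, 1.96% and 1.86% in untreated cells. Here each MA PANC-1 sample was above each PANC-1 sample. Relative to MT-CYB, its neighbour on the plus strand, MT-ND6 was at 0.523, 0.565 and 0.526 after MA and 0.433, 0.469 and 0.423 in untreated cells as a ratio of FPKM, again without overlap. Relative to MT-ND5, the plus-strand gene on its other side, it was at 0.922, 0.908 and 0.931 after MA and 0.886, 0.867 and 0.890 in untreated cells, also without overlap but closer together. Counts of MT-ND6 and of RNA from the strand opposite to it cannot be told apart if counting did not use strand.

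The rRNA genes form the core of the mitochondrial ribosome. MT-RNR2 (MT:1671-3229), the 16S rRNA gene, was at 1493, 1406 and 1834 FPKM for MA PANC-1 1, 2 and 3, against 1779, 2122 and 2002 FPKM for PANC-1 1, 2 and 3. MA PANC-1 3 lay above PANC-1 1, so the groups overlapped. It fell by 0.29 in log2 units (standard error 0.12, adjusted p = 0.439, edgeR), and when MA PANC-1 1, MA PANC-1 2, PANC-1 2 or PANC-1 3 was left out its unadjusted p was above 0.05. Its log2 fold change in these fits was −0.24, −0.24, −0.23 and −0.28. MT-RNR1 (MT:648-1601), the 12S rRNA gene, was at 485, 448 and 544 FPKM after MA and 496, 579 and 519 FPKM without it, a log2 fold change of −0.08 (SE 0.10, adjusted p = 0.779, edgeR) that ran from −0.010 (PANC-1 2 omitted) to −0.13 (MA PANC-1 3 or PANC-1 1 omitted) when single samples were left out. The FPKM ratio of 16S to 12S was 3.08, 3.14 and 3.37 after MA and 3.58, 3.66 and 3.86 in untreated cells. The MA PANC-1 ratios were all below the PANC-1 ratios. The ratios of MT-ND1 to MT-RNR2 and of MT-CO2 to MT-ND1, in contrast, overlapped between the groups. MT-TF and MT-TV lie before and between these genes on the same strand, and both were lower after MA relative to their rRNA neighbours in every sample.

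None of the 13 protein-coding genes passed the threshold in edgeR with all 6 samples, TMM and the filter at a mean of 0.1 FPKM. Their FPKM overlapped between the groups in all but MT-CO2, MT-ATP6 and MT-CO3. These 3 were lower after MA. Among all genes tested 19.9% did not overlap, 11.1% lower and 8.79% higher. The mean over the 13 genes was 3637, 4503 and 4202 FPKM after MA and 4444, 4279 and 4397 FPKM in untreated cells. All 7 complex I genes had a log2 fold change above 0, from 0.01 (MT-ND4L) and 0.02 (MT-ND4) through 0.05 (MT-ND3), 0.09 (MT-ND2), 0.11 (MT-ND1) and 0.13 (MT-ND5) to 0.19 (MT-ND6), and each but MT-ND6 turned negative in at least 1 alternative. Leaving out MA PANC-1 2 alone turned the 6 others negative.

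The complex IV and ATP synthase genes were below 0. MT-CO3 (MT:9207-9990), a subunit of complex IV, was at 4150.4, 5407 and 5322 FPKM after MA and 6514, 6111 and 6054 FPKM in untreated cells. The groups did not overlap, and the log2 fold change was −0.29 (standard error 0.13, adjusted p = 0.464, edgeR). MT-CO2 was at 7194, 8312 and 7913 FPKM after MA and 9032, 9039 and 8552 FPKM in untreated cells, also without overlap (log2 fold change −0.15, adjusted p = 0.596, edgeR). MT-CO1 (MT:5904-7445), the catalytic subunit with the heme centres, was at 5875, 6810.4 and 6383 FPKM after MA and 6603, 6871 and 6489 FPKM without it, and its log2 fold change of −0.03 was smaller than its standard error of 0.10. MT-CO3 relative to MT-CO1 was 0.706, 0.794 and 0.834 after MA and 0.987, 0.889 and 0.933 in untreated cells as a ratio of FPKM, lower in every MA PANC-1 sample.

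MT-ATP6, the proton channel subunit of ATP synthase, was at 1152, 1486 and 1386 FPKM after MA and 1589, 1572 and 1565 FPKM in untreated cells, without overlap (log2 fold change −0.19, adjusted p = 0.566, edgeR). MT-ATP8, whose reading frame overlaps that of MT-ATP6, had a log2 fold change of −0.18 (adjusted p = 0.602, edgeR), and MT-CYB, the cytochrome b gene of complex III, −0.10 (adjusted p = 0.765, edgeR). MT-ATP8 with MT-ATP6 and MT-ND4L with MT-ND4 share bases on the same strand, and how reads in these overlaps were divided is uncertain. Without MA PANC-1 2, MT-CO2, MT-CO3, MT-ATP6, MT-ATP8 and MT-CYB had an unadjusted p under 0.05, all lower after MA. Without MA PANC-1 1, in contrast, their log2 fold changes were nearer to 0, at −0.076, −0.16, −0.080, −0.064 and −0.012, and none passed. With all samples MT-CO3 had an unadjusted p under 0.05 in edgeR with library sizes alone and with the filter at 1 FPKM, and MT-CO2, MT-CO3 and MT-ATP6 did in both limma fits.

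Nuclear copies of mitochondrial genes share sequence with the originals, so reads may be divided between them. The table held 407 of these pseudogenes, 32 with a count and 14 tested, and together they had 2.53% to 3.01% as many counts as the mitochondrial genes. MTATP6P1 (chromosome 1, 633696 to 634376) held 40.7% to 42.8% of the counts summed with MT-ATP6, so the level of MT-ATP6 is uncertain, although this share overlapped between the groups. MTND2P28 held 11.0% to 14.7% of the sum with MT-ND2, and MTCO1P12 0.768% to 3.03% of the sum with MT-CO1. MTND1P23 and MTCO3P12, also on chromosome 1, had at most 846 and 508 counts. The log2 fold changes of these copies were −0.23 for MTATP6P1, 0.18 for MTND2P28, −0.54 for MTCO1P12, −0.15 for MTND1P23 and −0.36 for MTCO3P12, and none of the 5 passed the threshold. With the copies summed in, 6 mitochondrial genes again had an unadjusted p under 0.05, against 11.2% of the 17760 genes tested in that fit.

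The complexes that the mitochondrial mRNAs contribute to are built mostly from nuclear-encoded subunits. Of 72 nuclear subunit genes of complexes I, III and IV and ATP synthase, 23 rose and 1 fell, against 5.37% and 5.86% of all genes tested, and their median log2 fold change was 0.17. In complex I 10 of 37 rose, led by NDUFS8, an iron-sulfur subunit, from 15.2 ± 3.28 FPKM (SD, n = 3) in untreated cells to 24.0 ± 0.889 FPKM (SD, n = 3) after MA (log2 fold change 0.70, adjusted p = 0.375, edgeR). NDUFC1, NDUFA6 and NDUFA3 rose by 0.32, 0.48 and 0.39 on the log2 scale, while NDUFA5 fell by 0.56. In complex III 3 of 9 rose, UQCR10, UQCRQ and UQCR11, by 0.35, 0.25 and 0.25. In complex IV 6 of 11 rose, among them COX6A1 by 0.39, NDUFA4 by 0.30, COX7A2 by 0.41, COX6B1 by 0.27 and COX5A by 0.23. COX6A1 was at 176, 176 and 166 FPKM after MA and 133, 135 and 138 FPKM in untreated cells, without overlap. In ATP synthase 4 of 15 rose, ATP5MC3 by 0.30, ATP5MG by 0.24, ATP5F1B by 0.21 and ATP5MF by 0.21. The number that rose was 15 under DESeq2, where 5.55% of all genes did. Without MA PANC-1 1 it was 9 (3.8% of all genes) and without PANC-1 3 also 9 (3.26%). Leaving out PANC-1 1 gave 7 (3.1%), as did leaving out PANC-1 2 (3.52%), and the number was 24 without MA PANC-1 2 (4.51%) and 24 when MA PANC-1 3 was omitted (8.39%). None of the 72 kept an adjusted p under 0.05 (the lowest was 0.357, edgeR). For complex IV the median log2 fold change was −0.15 over the 3 mitochondrial genes and 0.23 over the 11 nuclear genes, for ATP synthase −0.19 and 0.11, and for complex I 0.092 and 0.17. The mitochondrial values depended on single samples. Without MA PANC-1 1, MT-CO2, MT-ATP6 and MT-ATP8 were at −0.076, −0.080 and −0.064. Without MA PANC-1 2, all mitochondrial complex I genes but MT-ND6 were negative. The difference between the genomes was not tested.

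**Figure D5:**
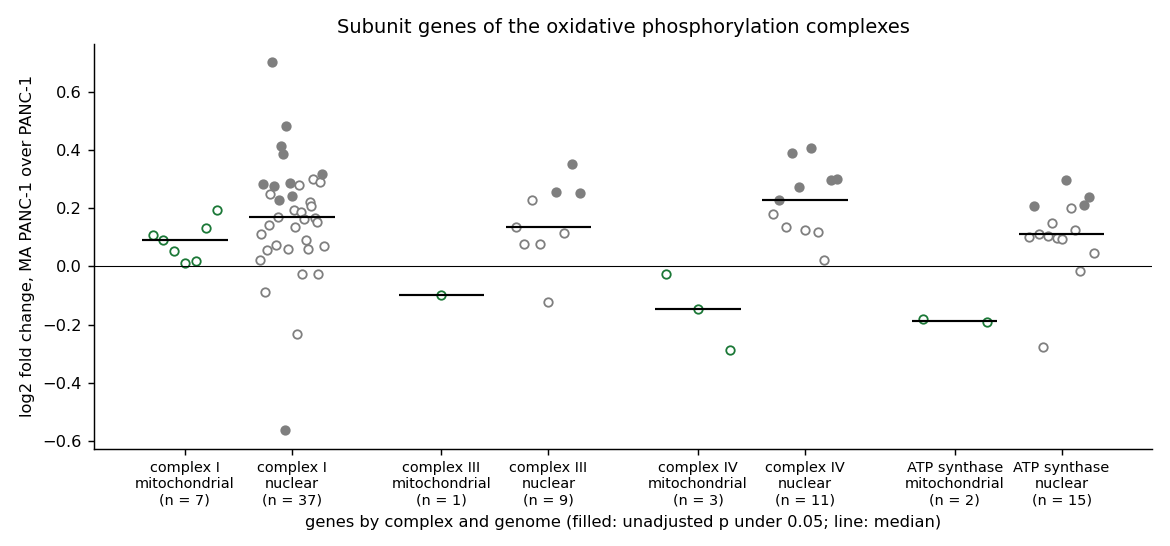
The log2 fold change of MA PANC-1 over PANC-1 for subunit genes encoded by the mitochondrial genome (green) and the nucleus (grey) in each complex; filled points have an unadjusted p under 0.05 and lines are medians. Of the nuclear genes 23 of 72 are filled and above 0, and none of the 13 mitochondrial genes is filled.

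Nuclear genes also copy, transcribe and process the mitochondrial genome. TWNK, the helicase that unwinds mitochondrial DNA for replication, had 666, 775 and 1171 estimated counts after MA and 2252, 2404 and 2449 in untreated cells, less in every MA PANC-1 sample. Its level was 2.96 ± 0.958 FPKM (SD, n = 3) after MA and 7.42 ± 0.937 FPKM (SD, n = 3) without it (log2 fold change −1.29, standard error 0.22, adjusted p = 0.208, edgeR). The paper also lists TWNK as lower in mRNA, but as higher in protein, where the difference was not significant. POLG, the mitochondrial DNA polymerase, rose by 0.32 (adjusted p = 0.441, edgeR), and the other 8 of 10 genes for DNA maintenance did not pass the threshold. Of 10 transcription genes 1 fell, TFAM, which packages mitochondrial DNA and activates its transcription, from 9.08, 9.31 and 10.4 FPKM in untreated cells to 7.78, 5.28 and 8.33 FPKM after MA (log2 fold change −0.40, adjusted p = 0.435, edgeR). Of 38 genes for RNA processing, modification and turnover 3 fell and none rose. Among all genes tested 5.86% fell, so these counts of 1 in 10 and 3 in 38 are near the background. The 3 were PRORP, the nuclease subunit of mitochondrial RNase P, with −0.31 (adjusted p = 0.439), TRMT5, a tRNA methyltransferase, with −0.42 (adjusted p = 0.435), and PTCD2, an RNA-binding protein, with −0.37 (adjusted p = 0.434, edgeR). Of 22 genes for loading amino acids on mitochondrial tRNAs none passed, and GATC, a subunit of the amidotransferase that completes the glutamine tRNA, had a log2 fold change of 0.15 (adjusted p = 0.549, edgeR). The median log2 fold changes were −0.18 for DNA maintenance, −0.093 for transcription, −0.071 for RNA processing and 0.0057 for aminoacylation.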

How the data were processed

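RNA of PANC-1 cells was sequenced in 6 libraries of poly(A)-selected RNA as paired reads of 150 bases. Per the submitters' processing notes, cutadapt 1.9, HISAT2 2.0.4 and StringTie 1.3.4d were used, beside edgeR and DESeq2. The genome build is not given in the sources used here; all 37 mitochondrial genes match GENCODE release 29 (GRCh38) in position and strand. The authors deposited an FPKM value per gene and sample, 0.0001 where no read was found, and an estimated count, which held whole numbers only. Within a sample both differed by gene length and a constant, which was tested on the mitochondrial genes with 1000 counts or more.

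Samples were grouped by treatment as labelled. All genes whose mean FPKM reached 0.1 (17774, including all 37 mitochondrial genes) were tested on the estimated counts with edgeR 4.0.16 (R 4.3.3, quasi-likelihood test, TMM normalization, Benjamini-Hochberg adjustment), and the biological coefficient of variation was 0.3075. The study's thresholds were an unadjusted p under 0.05 and a fold change of 2 or more, or 0.5 or less. A standard error is the log2 fold change divided by the square root of F. With 3 against 3 samples an exact permutation test cannot go below p = 0.1, so none is given. As estimates, the counts do not give counting intervals, and precision rests on the spread between samples.

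The genes and lists were chosen with earlier results of these data known. Named were all protein-coding and rRNA genes, tRNA genes past both thresholds, the 5 tRNA genes with the most counts, at most 5 genes past the p threshold in a list (otherwise 2), and the 5 nuclear copies with the most counts; other tRNA genes are given to account for each member. A gene that this rule names is not reported here. PRORP was matched by its identifier. Alternatives were other normalizations, DESeq2 1.42.0, limma 3.58.1 on log2(FPKM + 0.1) or log2(FPKM + 1), other filters, halved counts, nuclear copies summed in, the replicate number as a block and leaving out each sample. The fits were tested on simulated data.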

Additional observations from a re-analysis of the deposited data

How the results depend on the processing

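Of 629 pairs of a mitochondrial gene and an alternative, 568 kept direction and side of the unadjusted p threshold of 0.05, 9 lost the threshold (MT-TI and MT-RNR2), 27 gained it and 25 changed sign, none of these with an unadjusted p under 0.05. The number of genes under 0.05 was 14 and 13 in limma with pseudocounts of 0.1 and 1 (11.0% and 11.2% of all genes), and 4 to 10 when single samples were left out (6.63% to 18.1% of all genes), the 10 without MA PANC-1 2 (10.3%). With a 2-fold change as well it was 1 to 4, the 1 without MA PANC-1 1. With an adjusted p it was 2 under DESeq2 and 0 under the other 16 alternatives. When single samples were left out, the median log2 fold change ran from −0.67 to −0.20 for tRNA genes (nearest to 0 without PANC-1 2), from −0.31 to −0.12 for the plus strand (nearest to 0 without MA PANC-1 1, with −0.13 without PANC-1 2) and from 0.055 to 0.32 for the minus strand (lowest without MA PANC-1 2). Of the 72 nuclear subunit genes, 15 rose under DESeq2 and 7 to 24 when single samples were left out, alternatives that were run on this count after seeing the data. The cause of these shifts was not tested. The medians of protein-coding and rRNA genes and the shares moved by less than the spread between samples under the alternatives run for them. Sign changes occurred in MT-TM (−0.030 and −0.028 in limma), in MT-ND4L (−0.028 with library sizes alone, −0.027 in both limma fits and −0.010 with the filter at 1 FPKM) and in MT-ND4 (−0.021 with library sizes alone, −0.028 in both limma fits and −0.0014 with the filter at 1 FPKM). When single samples were left out, the log2 fold change ran from −0.18 to 0.26 in MT-TM, −0.058 to 0.081 in MT-ND4L, −0.10 to 0.13 in MT-ND4, −0.26 to 0.056 in MT-TL1, −0.12 to 0.041 in MT-CO1, −1.01 to 0.012 in MT-TS2, −1.33 to 0.13 in MT-TL2, −0.064 to 0.24 in MT-ND1, −0.064 to 0.21 in MT-ND2, −0.014 to 0.10 in MT-ND3 and −0.049 to 0.24 in MT-ND5; the negative values of the ND genes arose without MA PANC-1 2, or in MT-ND4L without any of 3 samples, and the positive ones of MT-TS2 and MT-TL2 without PANC-1 2.

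Samples with the same number deviated from their group means with correlations of 0.029, 0.050 and 0.072 over genes, so the numbers were not taken to pair the samples. With the replicate number as a block, 6 mitochondrial genes had an unadjusted p under 0.05, against 12.5% of all genes tested. Of these 6, 3 also had a 2-fold change. No gene tested, mitochondrial or nuclear, had an adjusted p under 0.05 in that fit. Depth limits the tRNA genes with few counts most, of which MT-TW had 11 to 60 and MT-TQ 15 to 39.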

Other observations

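Among the 14 nuclear copies of mitochondrial genes that could be tested, 1 had an unadjusted p under 0.05, where 11.2% of all genes tested did. MTRNR2L12 (chromosome 3, 96617188 to 96618236), a nuclear gene that resembles the 16S rRNA gene MT-RNR2, had 10, 17 and 18 estimated counts in MA PANC-1 1, 2 and 3, and 60, 39 and 40 in PANC-1 1, 2 and 3. Its log2 fold change was −1.45 (standard error 0.44, adjusted p = 0.391, edgeR), with no overlap between the groups. It was singled out after its values were seen, it shares sequence with MT-RNR2, which has far more counts, and how reads common to both were divided is uncertain.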
